A study of Mus musculus with 1078 samples.

Results

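Endothelial cells and malignant cells caught by the same CD31 gate were compared within 1 control plate of GL261 glioblastoma (GBM), a mouse glioma line grown in the forebrain of syngeneic C57Bl/6 mice. The cells were those of the control CD31+ plate that carried the study's label of endothelial cell (tumor endothelial cells, TECs; 43 cells) or malignant cell (33 cells), 76 of the 1078 cells of the series. The series held cells sorted by CD31, CD3 or CD45 from tumors of control mice and of mice given losartan, anti-PD1 or losartan+anti-PD1, profiled by Smart-seq2, a plate method that reads full-length cDNA from 1 cell per well. Control mice, young animals of both sexes, received phosphate-buffered saline in place of losartan and IgG in place of anti-PD1. The mice of the check plate received losartan, an angiotensin receptor blocker, with IgG, and that plate held 57 TECs and 25 malignant cells. No source used here names the animal of a cell or the number of animals on a plate, so each cell type on a plate was 1 sample and no test was run. Values over cells show the spread between cells of a plate, not between mice. GL261 is 1 established line, so its malignant cells stand for that line only.

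Vessels of the brain are lined by endothelial cells that seal to each other with tight junctions and carry nutrient and drug transporters, the blood-brain barrier (BBB). In glioma, vessels sprout toward signals from tumor cells, such as VEGF acting on VEGF receptors, and some lose barrier traits. Notch, Wnt, ephrin and semaphorin ligands, matrix proteins and growth factors run in both directions between vessel and tumor. Malignant glioma cells use genes of glial progenitors, such as the SOX and OLIG transcription factor genes.

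The study named the cell types by clustering on the same genes and checked its malignant clusters by inferred copy number. Every lineage gene below therefore describes the labels and does not test them. Levels are TP100K, the TPM values of each cell scaled to a sum of 100000, and ratios are log2 of the mean of TECs over that of malignant cells after adding 1 TP100K. Such ratios understate the change of genes with low levels. The 2 types differed in how many genes were detected. A TEC had 1023 to 6697 genes above 0 (median 3620) and a malignant cell 3399 to 7943 (median 7188). Read depth is unknown for these values. Of 21765 genes, 10206 had a value above 0 in no less than 25% of TECs or of malignant cells and entered the comparison. Of these, 631 genes (6.18%) had a log2 ratio of 2 or more, called higher in TECs, and 555 (5.44%) one of -2 or less, called higher in malignant cells. A further 135 genes (1.32%) were called shared, being detected in 75% or more of both TECs and malignant cells with a log2 ratio between -0.5 and 0.5. The median log2 ratio of all 10206 genes was -0.16. Scaling each cell by its 75th percentile instead of its total moved this median to -0.85 and turned the split to 401 genes higher in TECs against 1692 higher in malignant cells. The share of calls that fell to TECs was then 19.2%, against 53.2% with the total, so the numbers of genes on each side set no direction between the types. Of the genes called higher in TECs, 98 were listed at 0 in all malignant cells, and 45 of those called higher in malignant cells were listed at 0 in all TECs.

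The lineage genes separated the labels, although 2 TECs and 3 malignant cells held 5 or more genes of the other lineage above 0. Of 25 pan-endothelial genes, a TEC had 13 to 25 above 0 (median 23) and a malignant cell 0 to 8 (median 2), with at most 2 of them above 1 TP100K in any malignant cell. Of 20 glial progenitor and glioma genes, a malignant cell had 8 to 16 above 0 (median 13) and a TEC 0 to 13 (median 2), with at most 4 above 1 TP100K. The summed level of the pan-endothelial genes was 1219 to 3743 TP100K in TECs (median 2142) and 0 to 32.8 in malignant cells (median 5.39). That of the glial genes was 27.9 to 1676 in malignant cells (median 160) and 0 to 61.1 in TECs (median 4.42). The 1676 belonged to 1 malignant cell that stood apart, the next highest being 403. This cell alone among the 33 was at 0 for Olig1, Sox10 and Gpnmb together, and it held 1173 TP100K of Fabp7 and 245 of Gfap, while its pan-endothelial sum was 14.7. Without it 661 genes were called higher in TECs and 561 in malignant cells, with 131 shared, and 24 of 25 pan-endothelial and 10 of 15 glial genes were called. In the plot of summed lineage genes, the types therefore overlapped in the glial sum but not in the endothelial one. Because the 33 malignant cells were taken by the CD31 gate, Pecam1, the gene of CD31, was read first. It was above 0 in 42 of 43 TECs (97.7%, exact 95% interval 87.7 to 99.9), from 0 to 97.4 TP100K with a median of 24.8. It was above 0 in 1 of 33 malignant cells (3.03%, 0.077 to 15.8), at 0.20 TP100K. Why cells without Pecam1 RNA passed the gate was not tested. Intervals and limits on shares cover counting error over cells only.

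**Figure D1:**
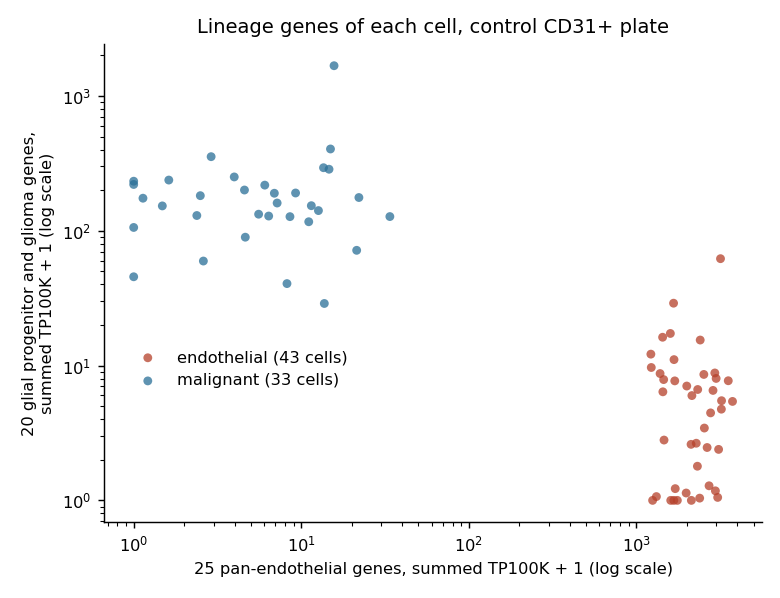
Each point is 1 cell of the control CD31+ plate. The x axis gives the summed TP100K + 1 of 25 pan-endothelial genes and the y axis that of 20 glial progenitor and glioma genes, both on log scales. TECs (red, 43 cells) lie at 1219 TP100K or more of endothelial RNA and malignant cells (blue, 33 cells) at 32.8 or less.

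Mural and macrophage genes were rarely above 0 in either type. None of 10 mural cell genes and none of 11 macrophage and microglia genes reached 25% of the cells. The mural sum was 0 to 8.81 TP100K in TECs and 0 to 2.45 in malignant cells, and the mural cell genes Des, Kcnj8, Myh11 and Vtn were listed at 0 in all 76 cells. The macrophage sum was 0 to 52.6 TP100K in TECs and 0 to 161 in malignant cells, with medians of 0 in both. A single malignant cell held C1qa, C1qb, C1qc and Lyz2, and without it 634 genes were called higher in TECs and 548 in malignant cells. Of 7 T cell genes, Cd3e and Lat were listed at 0 in all cells, and the summed level was 0 to 17.2 TP100K in TECs and 0 to 11.5 in malignant cells. Red blood cell genes summed to 0 to 143 TP100K in TECs and 0 to 18.3 in malignant cells. Of 5 neuron genes, Tubb3, a tubulin of neurons, was called higher in malignant cells (6.22 against 0.0859 TP100K). Of 6 astrocyte genes, Aldoc was called higher in malignant cells and Gja1, the gene of connexin 43, higher in TECs. The astrocyte sum was 0 to 98.0 TP100K in TECs and 0 to 371 in malignant cells, where the highest value belonged to the cell that stood apart and the next was 28.5. Of the oligodendrocyte genes, Cnp (19.6 against 2.59 TP100K) and Mbp, a myelin protein gene (3.54 against 0.011), were called higher in malignant cells, and whether this was the cells' own RNA was not tested.

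Promoters are shown for 4 lineage genes, to set the starts of genes with large differences side by side. They come from RefSeq on GRCm38.p6, from 250 bases before to 50 bases after a start. Capitals mark AGGAAG or CTTCCT in Egfl7, Eng and Cldn5, a string that holds GGAA, the core that ETS factors bind. Other strings with GGAA or TTCC were neither marked nor counted. In Sox2 capitals mark ACAAAG or CTTTGT, a SOX motif. Egfl7 and Eng did not overlap between the types, Cldn5 had the highest ratio, and Sox2 is a glial factor gene. Of 3 starts of Egfl7, one with 2 matches is shown.
Egfl7, chr2:26583615-26583914, plus strand: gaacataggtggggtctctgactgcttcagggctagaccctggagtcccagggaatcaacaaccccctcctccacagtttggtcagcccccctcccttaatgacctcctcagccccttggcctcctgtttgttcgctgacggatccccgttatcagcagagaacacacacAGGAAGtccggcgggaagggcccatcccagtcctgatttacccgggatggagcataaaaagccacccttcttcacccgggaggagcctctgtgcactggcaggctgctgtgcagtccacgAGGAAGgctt
Eng, chr2:32646345-32646644, plus strand: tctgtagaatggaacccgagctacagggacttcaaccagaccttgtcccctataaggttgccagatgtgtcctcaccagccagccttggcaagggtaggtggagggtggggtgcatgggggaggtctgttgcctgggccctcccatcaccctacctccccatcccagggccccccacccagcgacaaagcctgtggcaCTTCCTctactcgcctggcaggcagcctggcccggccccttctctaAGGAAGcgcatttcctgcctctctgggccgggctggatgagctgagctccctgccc
Cldn5, chr16:18776597-18776896, plus strand: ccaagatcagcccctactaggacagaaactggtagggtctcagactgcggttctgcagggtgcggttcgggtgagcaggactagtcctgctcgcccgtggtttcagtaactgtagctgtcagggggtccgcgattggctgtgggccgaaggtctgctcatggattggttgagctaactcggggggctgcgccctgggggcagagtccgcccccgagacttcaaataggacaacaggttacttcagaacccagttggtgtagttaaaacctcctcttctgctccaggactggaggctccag
Sox2, chr3:34649745-34650044, plus strand: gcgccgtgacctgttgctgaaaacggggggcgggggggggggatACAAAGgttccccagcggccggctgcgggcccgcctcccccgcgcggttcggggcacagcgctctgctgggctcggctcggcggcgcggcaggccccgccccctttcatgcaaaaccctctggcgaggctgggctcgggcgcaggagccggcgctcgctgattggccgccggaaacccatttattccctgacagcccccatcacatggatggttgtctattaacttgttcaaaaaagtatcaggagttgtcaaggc
The Cldn5 window holds neither AGGAAG nor CTTCCT. Promoters of 12 of the 25 pan-endothelial genes were in the table, with 16 starts, and 9 of the 16 (56.3%) held AGGAAG on either strand, against 35.4% of all 32851 promoters. Of 16 starts of 16 glial progenitor and glioma genes, 2 (12.5%) held ACAAAG on either strand, against 18.7% of all promoters. The GC box GGGCGG was in 18 of 22 starts of 18 housekeeping genes (81.8%), in 5 of 16 endothelial ones (31.3%), in 9 of 16 glial ones (56.3%) and in 35.7% of all promoters. AGGAAG on either strand was also in 6 of 16 glial starts (37.5%), and ACAAAG on either strand in 3 of 16 endothelial ones (18.8%). Each motif was counted on its own, also where it overlapped another. A match describes the letters and is not a bound site.

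Pan-endothelial genes were higher in TECs for 24 of 25 members, against 6.18% of all genes, with a median log2 ratio of 4.66 against -0.16. Cldn5, the main claudin of brain endothelium, had the highest ratio of all genes, 9.28. Its level ran from 0 to 1969 TP100K in TECs with a median of 528, and from 0 to 0.48 in malignant cells. It was above 0 in 32 of 43 TECs, so 11 TECs were listed at 0. Egfl7, a secreted factor of endothelium that hosts miR-126, was 49.9 to 1031 TP100K in TECs (median 469) and 0 to 4.28 in malignant cells. Eng, the gene of the BMP co-receptor endoglin, was 9.38 to 482 in TECs (median 104) and 0 to 0.80 in malignant cells. For Egfl7 and Eng the lowest TEC lay above the highest malignant cell. So did Tmsb4x, the gene of an actin-binding thymosin, at 267 to 1958 TP100K in TECs against 0 to 266. These were the 3 genes of 10206 (0.0294%) with every TEC above every malignant cell.

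The junction and adhesion genes of the list were high in TECs and close to absent from malignant cells. Esam, an endothelial adhesion molecule, had means of 162 against 0.018 TP100K (log2 ratio 7.32), Icam2 43.3 against 0.50 (4.89) and Pecam1 34.8 against 0.0060 (5.15). Cdh5, VE-cadherin, had a mean of 18.5 TP100K and was listed at 0 in all 33 malignant cells, which allows a share of cells of up to 9.09% (3 of 33 cells, a limit for a count of 0 and not an exact interval). Emcn, a sialomucin, had 120 against 0.011 (6.90), Cd34 74.7 against 0.021 (6.21), Podxl 12.8 against 0.0436 (3.72), and Mmrn2 18.1 against 0.040 (4.20). Among the receptors, Kdr and Flt1, VEGF receptors, had means of 24.4 against 0.0028 TP100K (4.66) and 24.8 against 0.50 (4.10). Tie1 and Tek, the angiopoietin receptor pair, had means of 25.7 and 12.6 TP100K and both were listed at 0 in malignant cells. S1pr1, a sphingosine phosphate receptor, had 26.6 against 0.37 (4.34), Ptprb 21.9 against 0.021 (4.49), Robo4 32.6 against 0.0034 (5.07), and Ramp2, a calcitonin receptor partner, 122 against 4.63 (4.45). Nos3, endothelial nitric oxide synthase, had 17.6 against 0.0242 (4.18), Ecscr 85.9 against 0.66 (5.71), Vwf, von Willebrand factor, 23.2 against 0.0033 (4.59), and Clec14a 28.3 against a listed 0. Fli1, an ETS factor gene, had 21.6 against 0.0047 (4.49). Erg, a related ETS factor gene, was the member not called, at 2.33 TP100K in TECs and listed at 0 in malignant cells.

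The other genes of the highest 10 were a mixed group. Igfbp7, an insulin-like growth factor binding protein of vessels, had means of 381 against 0.019 TP100K (8.55), and Ctla2a, a cathepsin inhibitor, 424 against 0.67 (7.99). Ctla2a was above 0 in 27 of 33 malignant cells, with a highest value of 3.34 TP100K, far below the TEC median of 408. Scgb3a1, a secretoglobin, had 206 against 0.0805 (7.58) and Pglyrp1, a peptidoglycan recognition protein expressed at the BBB, 158 against 0.024 (7.28). The heat shock genes Hspb1 and Hspa1a also entered, with means of 297 and 285 TP100K and ratios of 8.18 and 8.14, but medians of only 30.1 and 34.5. The highest TEC alone gave 31.8% of the Hspb1 sum and reached 4060 TP100K.

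**Figure D2:**
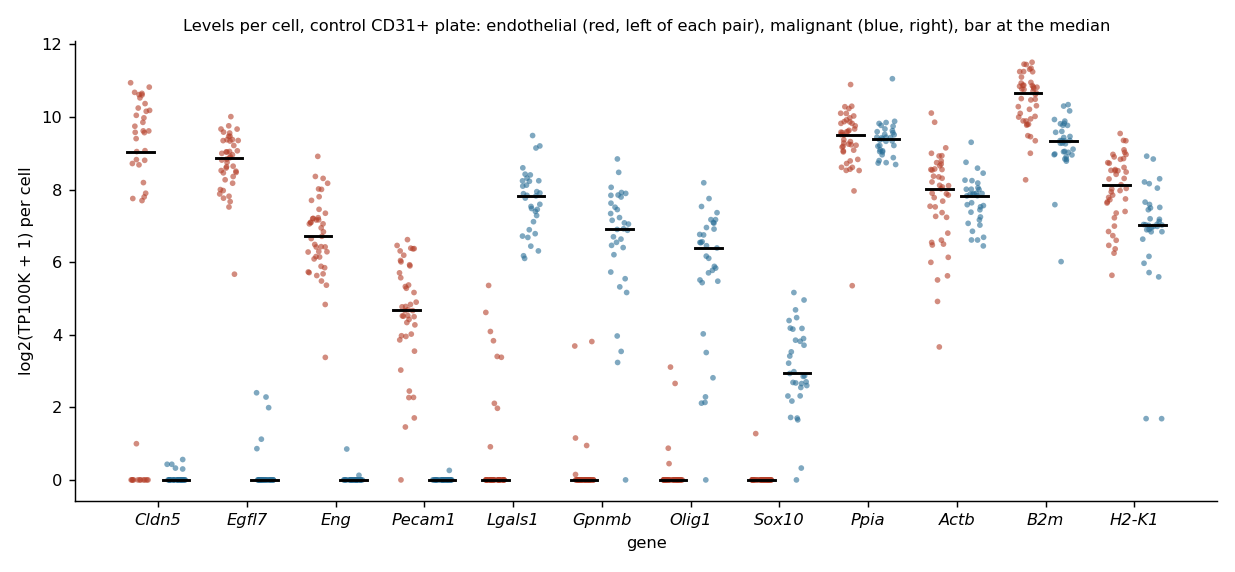
Each point is the log2(TP100K + 1) of 1 gene in 1 cell of the control plate, TECs in red on the left of each pair and malignant cells in blue on the right, and the bar marks the median. Egfl7 and Eng do not overlap between the types, Lgals1 is above every TEC in every malignant cell, and Ppia and Actb lie at like levels in both.

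Transcription factor genes of endothelium were called higher in TECs for 18 of 22 tested of 24 listed, against 6.18% of all genes. Their median log2 ratio was 2.89. Sox18 had the highest level among them, with a mean of 37.7 TP100K, from 0 to 189 over TECs, and was listed at 0 in malignant cells. Epas1, the gene of HIF-2 alpha, had 37.4 against 0.052 TP100K (5.19). Klf2, a factor induced by blood flow, had 22.7 against 0.026 (4.53), although 44.1% of its sum came from 1 TEC. Klf4 had 26.5 against 0.73 (3.99) and Sox17, a factor of arterial endothelium, 13.7 against 0.0046 (3.87). Foxf2, a factor gene of brain vessels, had 15.1 TP100K and was listed at 0 in malignant cells. Lef1, a partner of beta-catenin in Wnt signaling, had 6.39 against 0.0055 (2.88).

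Blood-brain barrier genes were called higher in TECs for 16 of 20 members, against 6.18% of all genes, with a median of 3.12. Besides Cldn5 and Pglyrp1, Slc38a5, an amino acid transporter, had means of 36.4 against 0.011 TP100K (5.21), Slco1a4, an organic anion transporter, 30.6 against 0.0062 (4.97), and Itm2a 55.7 against 3.73 (3.58). Mfsd2a, a lipid transporter that limits transcytosis, had 30.7 against 1.77 (3.52). Slc2a1, the glucose transporter GLUT1, was high in TECs (93.1 TP100K) and also above 0 in 31 of 33 malignant cells (20.5 TP100K), a log2 ratio of 2.13 that fell to 0.99 under 75th percentile scaling. The highest malignant cell gave 41.3% of the malignant sum, and without it the malignant mean was 12.4. Tfrc, the transferrin receptor, was the only member with a ratio below 0 (0.57 against 2.2 TP100K).

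Barrier genes were unevenly spread among the TECs. By the deposited cluster numbers, 28 TECs were of cluster 7, 12 of cluster 12 and 3 of cluster 3, and all 33 malignant cells were of cluster 2. These clusters were made from the same genes, so the differences are given as a description. Cells of cluster 12 had 1023 to 2770 genes above 0 and those of cluster 7 had 1485 to 6697. A listed 0 in cluster 12 is therefore not absence, and the part of gene number was not tested. Cldn5 was above 0 in all 28 cells of cluster 7 (207 to 1969 TP100K) and all 3 of cluster 3 (1161 to 1561), but in 1 of the 12 cells of cluster 12, at 0.997 TP100K. Plvap, the diaphragm protein of fenestrae and caveolae, showed the reverse, with 76.8 to 470 TP100K in all 12 cells of cluster 12, 1 of 28 cells above 0 in cluster 7 and 0 of 3 in cluster 3. Slc2a1 had a mean of 109 TP100K in cluster 7 and 0.68 in cluster 12, and Mfsd2a, Pglyrp1, Ocln, Slc38a5 and Vwf were listed at 0 in all 12 cells of cluster 12. Slc16a1, Slc7a5, Slco1c1 and Slc22a8 were also listed at 0 in all 12, against means of 15.3, 12.5, 4.70 and 2.82 TP100K in cluster 7. The means of some transporter genes did not fall in this way. Slc3a2 had means of 133 TP100K in cluster 12 and 49.6 in cluster 7, Abcg2 17.3 and 17.1, Abcb1a 8.30 and 6.30, and Slco1a4 18.4 and 23.2. Slc3a2 was above 0 in all 12 cells of cluster 12. Abcg2, Abcb1a and Slco1a4 were above 0 in 7, 4 and 3 of 12, against 21, 21 and 16 of 28 in cluster 7. Egfl7 was 49.9 to 813 TP100K in those 12 cells, Pecam1 was above 0 in all 12 and Eng had a mean of 176. Apln, a tip cell ligand, was above 0 in 22 of 28 cells of cluster 7 and 1 of 12 of cluster 12, and its receptor gene Aplnr in 21 of 28 and 0 of 12. Adm and Trp53i11 were also listed at 0 in cluster 12. Among the other genes followed by cluster, several had lower means there than in cluster 7. Fscn1 had 0.43 against 11.7 TP100K, Mcam 12.2 against 27.7 and Nid2 1.95 against 7.91. Some genes of tumor endothelium had higher or like means there. Esm1 had means of 80.5 TP100K in cluster 12 and 5.60 in cluster 7, and Igfbp3 354 and 105. Dll4 had 17.3 and 15.8, and Angpt2 22.1 and 24.9. Fewer cells of cluster 12 held them, Dll4 being above 0 in 5 of 12 against 26 of 28 in cluster 7. Angpt2 was above 0 in 2 of 12 against 19 of 28. On the losartan plate Cldn5 was above 0 in 24 of 24 cells of cluster 7 and in 1 of 4 of cluster 12, and Plvap in 4 of 24 and 4 of 4. Without the cells of cluster 12, 18 of 20 barrier genes were called higher in TECs.

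Genes of tumor endothelium and tip cells were called higher in TECs for 14 of 16 tested of 20 listed, against 6.18% of all genes. Their median was 4.52. Igfbp3 had means of 173 against 0.86 TP100K (6.55, or 7.41 without the malignant cell that stood apart), Trp53i11 53.2 against 0.0098 (5.75), and Adm, the vasodilator adrenomedullin, 57.5 against 0.68 (5.13). Apln had 35.7 TP100K and Dll4, the Notch ligand of tip cells, 15.6, and both were listed at 0 in malignant cells. Angpt2, which loosens vessels, had 22.4 against 0.21 (4.28).

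RNA of the vessel matrix lay mainly in TECs. Basement membrane and matrix genes were called higher in TECs for 14 of 18 tested of 30 listed and for none in malignant cells. Over all genes these shares were 6.18% and 5.44%, and the median of the list was 2.76. Col4a1 and Col4a2, the common chains of collagen IV, had means of 45.6 against 0.0021 TP100K (5.54) and 67.7 against 0.0066 (6.09). Fn1, fibronectin, had 61.2 against 0.21 (5.69), Sparc 309 against 20.1 (3.88), and Sparcl1 107 against 3.81 (4.49). Bgn, biglycan, had 32.5 TP100K and was listed at 0 in malignant cells. Among proteases and inhibitors, Plat, Timp3 and Mmp14 were called higher in TECs, and Mmp2, a gelatinase, higher in malignant cells, where it was above 0 in 25 of 33 cells with a mean of 5.41 TP100K, against a listed 0 in TECs. Of 9 integrin genes tested, Itga1 (9.13 against 0.22 TP100K) and Itga3 (5.0 against 0.0449) were called higher in TECs. Of 16 junction genes tested, 8 were called higher in TECs, with Tjp1, the gene of ZO-1, at 12.3 against 0.46 TP100K (3.19). Jam3, a junctional adhesion molecule, was the junction gene called higher in malignant cells (14.8 against 0.62, -3.28). The cavin gene Ptrf was called higher in TECs (16.1 against 0.88, 3.19), as were Ehd4, Mal and Plvap of 9 caveolae and vesicle genes tested. Cav1, the main coat protein of caveolae, was at 11 against 10.3 TP100K and Cav2 at 7.52 against 26.3, neither past the threshold.

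Glial progenitor and glioma genes were called higher in malignant cells for 10 of 15 tested, against 5.44% of all genes, with a median log2 ratio of -2.74. Olig1, a factor gene of the oligodendrocyte lineage, was 0 to 291 TP100K in malignant cells (median 82.9, above 0 in 32 of 33) and 0 to 7.63 in TECs (above 0 in 4 of 43), a ratio of -6.04. Sox10 had means of 10.3 against 0.033 TP100K (-3.45) and Sox2, a stem cell factor gene, 5.85 against 0.026 (-2.74). S100b had 11.1 against 0.060 (-3.51), Gpm6b 10 against 0.0296 (-3.42), the hyaluronan receptor gene Cd44 10 against 0.012 (-3.44), and the glutamate transporter gene Slc1a3 7.02 against 0.0053 (-3.0). The proteoglycan genes Bcan and Ptprz1 had 5.53 against 0.017 (-2.68) and 4.91 against 0.014 (-2.54). Fabp7, a radial glia lipid carrier, was listed at 0 in TECs and 0 to 1173 TP100K in malignant cells. Its median was 1.70, the cell that stood apart gave 80.4% of its sum, and the mean fell from 44.2 to 8.95 TP100K without that cell. Olig2 (2.9 TP100K in malignant cells and listed at 0 in TECs), Ncan and Cspg4 missed the threshold, and Nes, the intermediate filament gene nestin, was alike in both types (2.78 in TECs against 2.18 in malignant cells). Pdgfra, Sox9, Gfap and Ednrb were below 25% of the cells in both types. Of 17 glial and neural factor genes tested, Tcf12, an E-protein gene, was also called higher in malignant cells (44.8 against 1.64 TP100K, -4.11), and Nfib higher in TECs (7.60 against 1.01, 2.10).

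Of the 10 lowest ratios of all genes, 2 belonged to the glial list, Olig1 and Fabp7. Moxd1, a monooxygenase gene, had means of 120 against 0.35 TP100K (-6.48), and Gpnmb, a lysosomal glycoprotein gene, 140 against 0.63 (-6.43). Lgals1, galectin 1, was 67.8 to 718 TP100K in malignant cells (median 226) and 0 to 40.03 in TECs. Cd63, a tetraspanin of endosomes, was 74.6 to 747 in malignant cells (median 251) and 0 to 63.2 in TECs. Lgals1 and Cd63 were the 2 genes (0.0196%) with every malignant cell above every TEC. Lgals3, galectin 3, had 58.5 against 0.081 TP100K (-5.78), Syt4, a synaptotagmin gene, 73.6 against 0.42 (-5.71), Serpina3n 61 against 0.30 (-5.58), and F3, tissue factor, which starts blood clotting, 49.9 against 0.22 (-5.39).

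Cell cycle genes were higher in malignant cells for 15 of 25 members, against 5.44% of all genes, and for none in TECs. Their median was -2.12. Cdc20, an activator of the anaphase complex, had means of 31.8 against 1.14 TP100K (-3.94), Rrm2, a ribonucleotide reductase subunit, 15.2 against 0.30 (-3.65), Birc5, survivin, 22.5 against 1.08 (-3.50), and Ccnb1, cyclin B1, 14.6 against 0.41 (-3.46). Cenpa and Top2a followed at -3.07 and -2.82. At least 13 of the 25 genes were above 0 in 19 of 33 malignant cells and 2 of 43 TECs. Among the 24 TECs and 9 malignant cells within the range of gene numbers that both types reached, where 2 cells of each type held at least 13 of the genes, none of the 16 cell cycle genes tested was called, while 25 of 25 pan-endothelial and 10 of 15 glial genes were. Of all 9376 genes tested in these cells, 662 were called higher in TECs and 352 in malignant cells. Among 30 TECs and 5 malignant cells of intermediate gene number, 0 and 2 held at least 13 of the cell cycle genes. There 3 of 16 were called higher in malignant cells, against 368 of all 8300 genes tested. The parts of gene number and of cycling cells in this were not tested. On the losartan plate 4 of 24 cell cycle genes were called higher in malignant cells, against 3.53% of all genes there.

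Glycolysis and hypoxia genes had a median log2 ratio of -0.81, with 18 of 23 tested below 0 and 5 above. Of the 23, 5 were called higher in malignant cells and 3 in TECs, against 9 and 1 under 75th percentile scaling. Over all genes 5.44% were called higher in malignant cells and 6.18% in TECs with the total. Under 75th percentile scaling 1692 and 401 of all 10206 genes were, so the counts of the list moved in the same direction as those of all genes. The glycolytic enzyme genes Pgk1 (106 against 12.3 TP100K, -3.01), Tpi1 (84.1 against 13.4, -2.56), Eno1 (130 against 22.7, -2.46) and Aldoc (7.46 against 0.0083, -3.07) and the lactate exporter gene Slc16a3 were the malignant ones, and Slc2a1, Adm and Ndrg1 the endothelial ones. Of 12 heat shock genes, Hspa1a, Hspa1b and Hspb1 were called higher in TECs, and the chaperone genes Hspd1 (69.7 against 4.93, -3.57), Hspe1 and Hsp90aa1 higher in malignant cells. Of 17 immediate early genes, Jun (181 against 15.2 TP100K, 3.49), Dusp1 (166 against 10.4, 3.87), Zfp36 and Junb were called higher in TECs. The Jun level of a TEC ran from 0 to 2004 TP100K with a median of 30.4.

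Genes for contact with leukocytes were divided between the types. Of 11 adhesion, chemokine and checkpoint ligand genes tested, 5 were called higher in TECs, against 6.18% of all genes. Cd200, a ligand that restrains myeloid cells, had means of 127 against 0.71 TP100K (6.23), Cxcl12 18.8 against 0.0050 (4.30) with 46.3% of its sum in 1 TEC, and Icam1 18.5 against 2.36 (2.54, or 3.30 without the malignant cell that stood apart). Entpd1, the gene of CD39, had 13.8 TP100K and was listed at 0 in malignant cells, and Icam2 is given above. Lgals1 and Cxcl10, a chemokine for T cells, were called higher in malignant cells, Cxcl10 at 18.3 against 2.91 TP100K (-2.31). Cxcl10 was above 0 in 12 of 33 malignant cells, and on the losartan plate, where it did not reach 25% of the cells, its log2 ratio was 3.61.

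Genes of antigen presentation were present in both types. None of 14 MHC class I and peptide loading genes was called higher in either, and 3 were called shared (H2-T23, Calr and Pdia3), with a median of 0.17 that took the opposite sign under 4 of 18 alternatives, 75th percentile scaling among them. B2m, the common light chain, had means of 1580 TP100K in TECs and 676 in malignant cells, H2-K1 had 310 and 160 and H2-D1 312 and 146, each above 0 in all 76 cells. Of 25 interferon-induced genes, none was called higher in TECs and 2 in malignant cells, Gbp6 (19.4 against 2.67, -2.48) and Rsad2. Over all genes 6.18% were called higher in TECs and 5.44% in malignant cells, so these counts do not set either list apart. On the anti-PD1 plate 6 of 24 interferon-induced genes were called higher in TECs, against 5.9% of all genes there. That plate held only 8 malignant cells, and 78 of its 79 TECs were of cluster 3, against 3 of 43 on the control plate. The counts were 2 of 25 on the losartan+anti-PD1 plate, against 8.25% of all genes, and 0 of 25 on the losartan plate, against 6.62%. Treatment, plate and the mix of clusters cannot be told apart. Ifitm3, an antiviral membrane protein gene, had the highest level of the list, 1026 TP100K in TECs and 323 in malignant cells. Of the 10 shared genes with the highest levels outside ribosomal and mitochondrial genes, Ppia, cyclophilin A, led with 39.8 to 1903 TP100K in TECs (median 724) and 412 to 2127 in malignant cells (median 673), a ratio of 0.06. Ubb (486 and 619 TP100K), Tpt1 (420 and 574), Actb (286 and 227), Ftl1 (215 and 267), Ptma (213 and 188), Gm15772 (158 and 224), Actg1 (176 and 138), Chchd2 (143 and 149) and Sod1 (106 and 144) followed, the first value being that of TECs. Under 75th percentile scaling their ratios were -0.51 (Actg1) to -1.72 (Tpt1), so a like level in both types holds for the scaling by total only. Of 20 cytoskeleton, translation and housekeeping genes, 6 were called shared, against 1.32% of all genes, and Tmsb4x, Tmsb10 and Fth1 were called higher in TECs and Tuba1b in malignant cells.

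**Figure D3:**
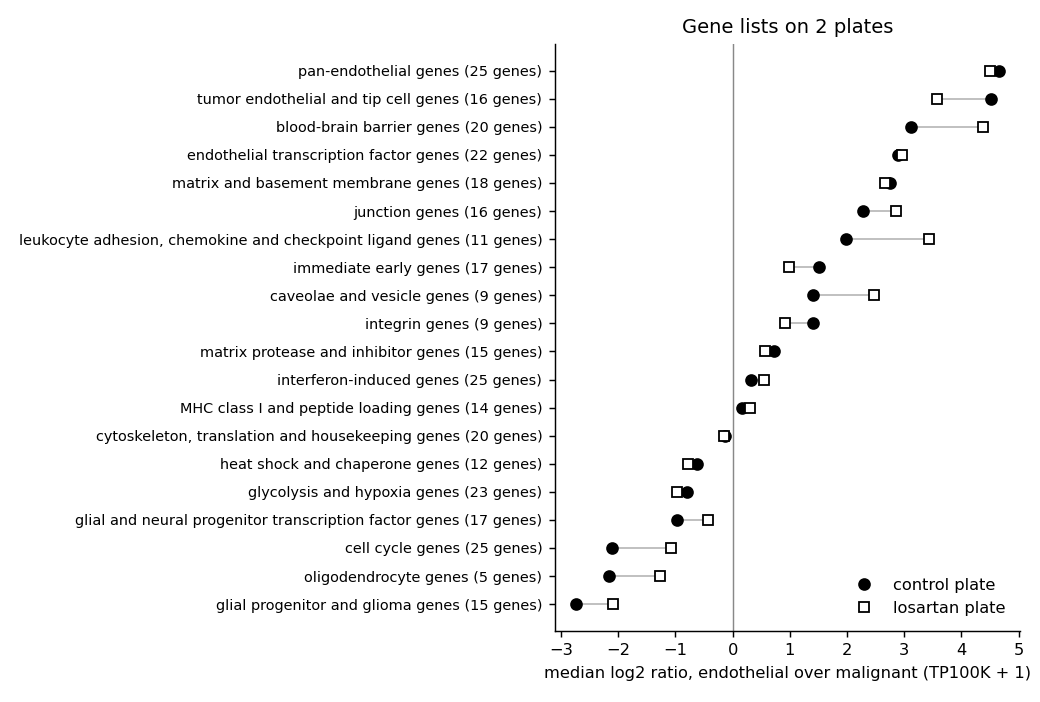
Median log2 ratio, TECs over malignant cells, of each gene list with at least 5 genes tested on the control plate (black circles) and on the losartan plate (open squares). The number after each name is that of genes tested on the control plate. Pan-endothelial genes lie highest on both plates (4.66 and 4.51) and glial progenitor and glioma genes lowest (-2.74 and -2.09).

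Ligands and receptors were read as pairs. Of 88 pairs, one was taken to run from a type to the other where 25% or more of the first held the ligand above 0 and 25% or more of the second the receptor. By this rule 14 pairs ran from malignant cells to TECs only, 10 from TECs to malignant cells only, 6 both ways and 58 neither way. RNA of both partners does not show that the proteins meet. Where a value had to exceed 1 TP100K, the counts were 8, 6 and 4 pairs, with Lama4 to Itga6 now running from malignant cells only. The pairs from malignant cells that no longer ran were those of Vegfa, Sema3a, Sema3e, Sema4d and Tnc, and those from TECs were Jag1 and Jag2 to Notch2, Kitl to Kit and Sema3f to Nrp2.

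From malignant cells to TECs, Wnt7b, the Wnt ligand of brain vessel growth, was above 0 in 19 of 33 malignant cells (57.6%, exact 95% interval 39.2 to 74.5), at 0 to 36.9 TP100K with a mean of 5.19, and in 1 of 43 TECs. Its co-receptor gene Gpr124 was above 0 in 22 of 43 TECs (51.2%, 35.5 to 66.7), at 0 to 12.4 TP100K with a mean of 1.72, and in 0 of 33 malignant cells. VEGF pairs rested on very low ligand RNA. Vegfa was above 0 in 11 of 33 malignant cells but never above 1 TP100K (highest 0.71, mean 0.12) and listed at 0 in TECs, while Kdr, Flt1 and Nrp1 were at means of 24.4, 24.8 and 24.3 TP100K in TECs. Vegfb was above 0 in 10 malignant cells, with a mean of 1.05 TP100K. Tgfb3 was above 0 in 13 malignant cells and no TEC (mean 1.18 TP100K), with Tgfbr2 at 10.8 TP100K in TECs and 1.33 in malignant cells. Igf2 was above 0 in 17 malignant cells and no TEC (mean 0.72), with Igf1r and Igf2r at 0.82 and 1.02 in TECs. Sema3e (mean 0.72 TP100K, 17 malignant cells) paired with Plxnd1 (7.28 in TECs), Sema3a with Nrp1 and Sema4d with Plxnb1. Efna1 was above 0 in 18 malignant cells but had a higher mean in TECs (33.6 against 4.21), and its receptor gene Epha2 was above 0 in 15 TECs and 1 malignant cell. Dll1 to Notch1 and Tnc to Itgav completed the group, with ligand means of 1.62 and 0.92 TP100K in malignant cells.

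From TECs to malignant cells, the Axl receptor tyrosine kinase gene stood out on the receiving side. Axl was above 0 in 32 of 33 malignant cells (0 to 52.5 TP100K, mean 17.7) and in 3 of 43 TECs (mean 0.12), a log2 ratio of -4.06. Its ligand genes Gas6 and Pros1 were above 0 in 12 and 20 of 43 TECs, with means of 15.1 and 4.23 TP100K, against 1 and 7 malignant cells. Among cells in the common range of gene numbers the Gas6 ratio was -0.45, against 3.48 over all cells. The Notch ligand genes Dll4 and Jag2 were above 0 in 32 and 29 TECs and in no malignant cell. Notch1 was above 0 in 27 malignant cells (mean 1.13 TP100K) and 38 TECs (7.34), and Notch2 in 22 malignant cells (0.42) and 6 TECs (0.17). Dll4 paired with Notch1, and Jag2 and Jag1 with Notch2. Fn1 was above 0 in 31 TECs, and its receptor genes Itga5 and Itgav in 18 and 24 malignant cells, with means of 1.31 and 1.08 TP100K. Kit, the stem cell factor receptor gene, was above 0 in 29 malignant cells (mean 9.66 TP100K) and 18 TECs (6.43), and its ligand gene Kitl in 11 TECs (1.27). Adm in 19 TECs paired with Calcrl in 13 malignant cells (mean 0.91), and Sema3f in 15 TECs with Nrp2 in 18 malignant cells (0.85).

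The 6 pairs that ran both ways were Jag1 to Notch1, Lama4 and Lamb1 to Itga6, Mif and App to Cd74, and the N-cadherin gene Cdh2 with itself. Mif, macrophage migration inhibitory factor, had means of 304 TP100K in malignant cells and 42.3 in TECs, App, the amyloid precursor, 10.6 and 47.5, and their receptor gene Cd74 23.4 and 40.5. Cdh2 was above 0 in 28 cells of each type.

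**Figure D4:**
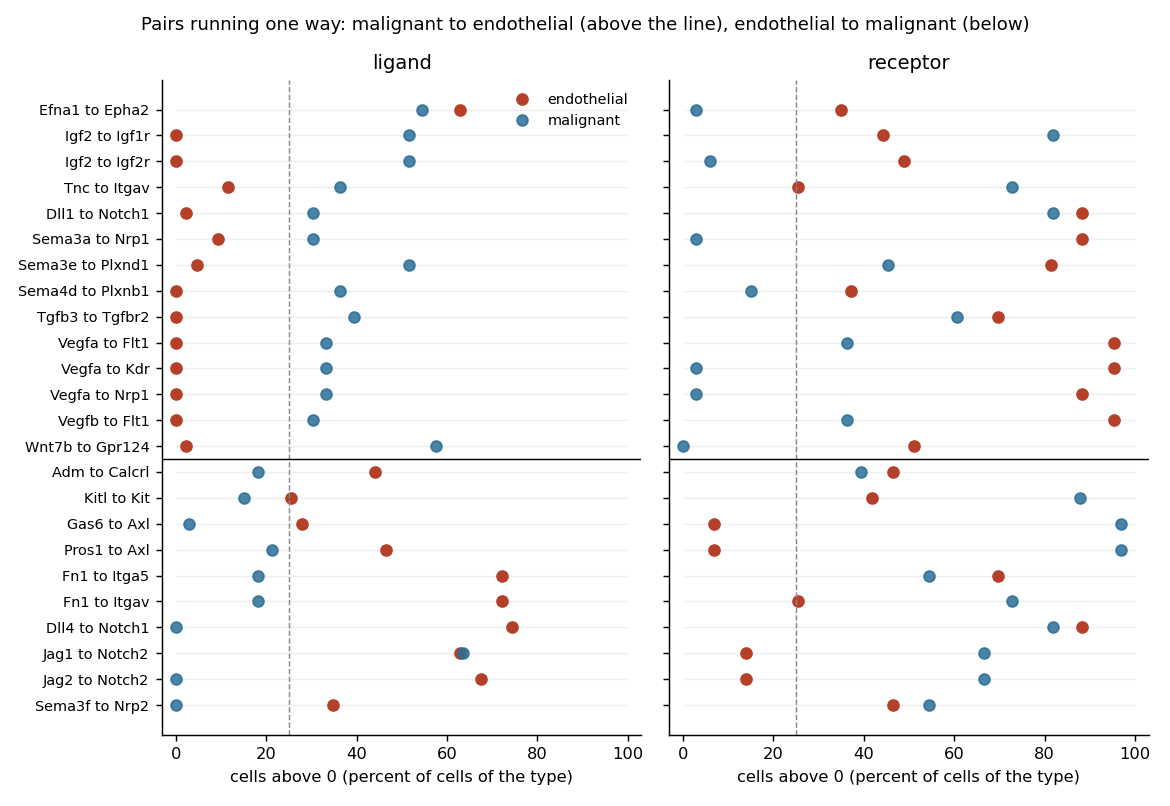
Share of cells above 0 (percent) for the ligand (left) and the receptor (right) of each pair that ran in 1 direction only, TECs in red and malignant cells in blue. The dashed line marks the limit of 25%. Pairs above the horizontal line ran from malignant cells to TECs (14), those below from TECs to malignant cells (10).

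The losartan plate, with other cells and other mice, gave much the same order of genes. Of 9864 genes tested there, 653 (6.62%) were called higher in TECs, 348 (3.53%) higher in malignant cells and 88 (0.892%) shared. The calls for TECs had 428 genes in common, 67.8% of those of the control plate and 65.5% of those of the losartan plate. The calls for malignant cells had 254 in common, 45.8% and 73%, and the shared genes 53, 39.3% and 60.2%. No gene was called in opposite directions. Over the 9498 genes tested on both plates the log2 ratios had a Pearson r of 0.825, which is across genes that are not independent. The same lists led on both plates, and 24 of 25 pan-endothelial and 10 of 16 glial genes were called. Barrier genes had a higher median on the losartan plate (4.37 against 3.12) and tumor endothelial genes a lower one (3.58 against 4.52), where 29 of 57 TECs were of cluster 3, 24 of cluster 7 and 4 of cluster 12. Cldn5 had a mean of 1181 TP100K in TECs there and 23.3 in malignant cells. One malignant cell of that plate had 21 of the 25 pan-endothelial genes above 0, with 19 above 1 TP100K. No gene there (0%) had every TEC above every malignant cell, and 2 (0.0203%), Gpnmb and Bcat1, had every malignant cell above every TEC. Of the pairs, 12 of the 14 from malignant cells, 8 of the 10 from TECs and all 6 that ran both ways ran the same way, Wnt7b to Gpr124, Gas6 to Axl and Dll4 to Notch1 among them. Dll1 to Notch1, Tnc to Itgav and Adm to Calcrl ran neither way there, and Kitl to Kit ran both ways. Losartan and plate cannot be told apart.

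For genes detected in 25% or more of both TECs and malignant cells, the median ratio differed by chromosome. After subtracting the median of all these genes, it was lowest on chromosome 15 (-0.34 over 213 genes) and X (-0.28 over 139) and highest on chromosomes 12 (0.27 over 162), 14 (0.25 over 161) and 16 (0.23 over 158). On the losartan plate chromosome 15 was again lowest (-0.41) and chromosomes 14 (0.42), 16 (0.38) and 12 (0.33) highest, while X was at -0.07. Over the 20 chromosomes the plates had a Pearson r of 0.855, a description of medians that share the same genes. The r of the control plate was 0.502 with the anti-PD1 plate, which held 8 malignant cells. Because the paper checked the malignant clusters by copy number inferred from these data, the medians do not test that label.

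**Figure D5:**
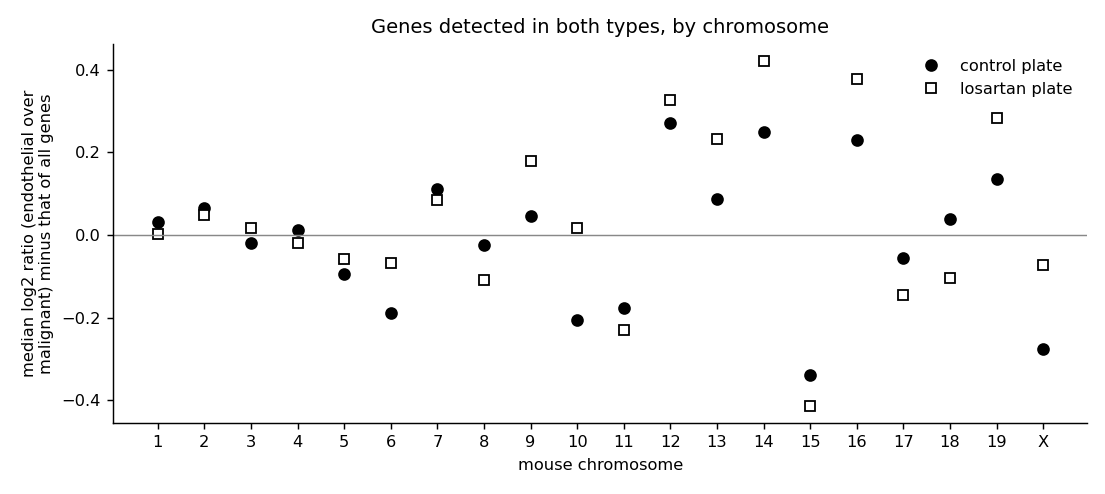
For each mouse chromosome, the median log2 ratio (TECs over malignant cells) of genes detected in 25% or more of both types, minus the median of all such genes, on the control plate (black circles) and the losartan plate (open squares). Chromosome 15 lies lowest on both plates (-0.34 and -0.41), and chromosomes 12, 14 and 16 lie above 0 on both.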

How the data were processed

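Cells of GL261 tumors were sorted as CD31+, with 1 plate per treatment, and profiled by Smart-seq2. The authors mapped reads with Bowtie against mm10 transcripts and estimated gene levels by RSEM (version 1.2.8 in the submitters' notes), and the deposited values are TPM, divided by transcript length and scaled to the same sum in each cell, so read depth is unknown and only 1.01% of the values above 0 are whole numbers. Labels of cell type and treatment were taken from the series, and the deposited cluster numbers and gene numbers from its cell table. Of the series' columns, 766 belonged to cells of other plates and were not used. Each cell was scaled to 100000 (TP100K). Genes detected in 25% or more of either type were compared, with a pseudocount of 1 TP100K, a call at a log2 ratio of 2 or -2, and shares with exact (Clopper-Pearson) 95% intervals. Named genes were all called members of the pan-endothelial and glial lists, the 10 highest and 10 lowest ratios, the 10 highest shared genes, called members of the other lists (up to 6 each), and pairs running in 1 direction. Genes outside this rule, such as B2m, Ifitm3 and Cav1, were named after their values were seen, as were the genes followed by cluster. The comparison, the 26 gene lists and the 88 pairs were chosen with earlier results of these data known. Some members of the lists are not reported here. With no animal named, no p-value was computed. Gene positions came from GENCODE vM21 and promoters from RefSeq, both on GRCm38. The steps were tested on simulated data. Software was SciPy 1.17.1, NumPy 2.4.6 and pandas 2.3.3 in Python 3.11.15, with plots by matplotlib 3.10.9. Alternatives covered the pseudocount, filter, scaling, detection limit, cells entered and the 3 other CD31+ plates.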

Additional observations from a re-analysis of the deposited data

How the results depend on the processing

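No paired analysis was possible because the labels carry no animal or replicate number. Each of the 4 CD31+ plates held both types, and the ratios were taken within a plate, but the plates were not tested as pairs, since the types were named from the same genes. On all 4 plates 238 genes were called higher in TECs, 82 higher in malignant cells and 19 shared. The main counts were 631 genes higher in TECs, 555 higher in malignant cells, 135 shared, and 14 pairs from malignant cells and 10 from TECs. A pseudocount of 0.1 TP100K gave 1216 and 1719 genes higher in each type, and one of 10 gave 97 and 53 with 223 shared. Scaling by the 75th percentile gave 401 and 1692, and the mean of ln values 232 and 981. Cells of intermediate gene number (30 TECs, 5 malignant cells) gave 1042 and 368 with 4 pairs from malignant cells. The range of gene numbers that both types reached, chosen after seeing the data, gave 352 higher in malignant cells, 486 shared and 8 pairs from malignant cells. Without cluster 12, also chosen afterwards, 336 genes were shared. Detection above 1 TP100K gave 82 shared genes and 8 and 6 pairs. A filter of 10% of cells gave 19 pairs from TECs, one of 50% gave 2 and 6, and none gave 23 from TECs. The losartan plate gave 348 higher in malignant cells and 88 shared, the anti-PD1 plate 9 pairs from malignant cells, and the losartan+anti-PD1 plate 17 from TECs. Without the malignant cell that stood apart, chosen afterwards, no count moved by over 1.5 times. The other 63 of 90 counts stayed within 1.5 times. No list with a median of 2 or more in size changed sign under any of 18 alternatives, but medians near 0 did: MHC class I genes under 4, housekeeping genes under 3, interferon-induced genes under 2, astrocyte genes under 7, and heat shock and protease genes under 1 each. Calls of list members also depended on the setting. With a pseudocount of 10 TP100K, 11 of 25 pan-endothelial, 2 of 22 endothelial factor and 5 of 20 barrier genes were called higher in TECs. With the mean of ln values these were 23, 7 and 6. Of 15 glial genes, 2 and 9 were called higher in malignant cells under these 2 settings. The causes were not tested. Depth is unknown, and malignant cells had a median of 7188 genes against 3620 in TECs.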
